A study of Mus musculus with 12 samples.

Results

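T cells and natural killer (NK) cells were followed in healing paraspinal tissue through 10 genes: the CD3 chains *Cd3d*, *Cd3e* and *Cd3g*, the co-receptors *Cd4* and *Cd8a*, the regulatory T cell factor *Foxp3*, and the effector and NK genes *Ifng*, *Gzmb*, *Nkg7* and *Ncr1*. The genes were found by symbol in the deposited count table, where all 10 occur among 18996 genes. The table covers 12 BALB/c mice, 5 to 7 weeks old, with 4 mice in each of 3 groups. No operation mice gave intact paraspinal soft tissue. SHAM mice had paraspinal soft tissue removed with the lamina left in place, and Laminectomy mice had the lamina excised from T12 to L2, and both gave paraspinal soft tissue together with scar on day 7. No group carries a transgene, and the labels name no drug or vesicle treatment.

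T cells read antigen through a receptor whose signal passes inside by the CD3 chains, and the co-receptors CD4 and CD8 bind the class II and class I antigen-presenting molecules. Cytotoxic T cells and NK cells kill by releasing granules that hold perforin and granzymes, and interferon gamma is their best known secreted signal. In wounds these cells are usually a minority beside neutrophils and macrophages. The study built vesicles that engage T cells through CD3, so the level of T cell transcripts in a wound without such treatment is a question that these groups can address.

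The summed transcripts of these genes were scarce in intact tissue and higher on day 7 in both operated groups, most of all through *Cd4* and *Gzmb*, while *Foxp3* had lower means in both and *Nkg7* and *Ifng* showed no called difference. The 10 genes together made up 1.75 to 11.5 CPM (read counts scaled to a common, TMM-adjusted library size) in No operation mice. The sum was 21.2 to 34.8 CPM in SHAM mice and 17.6 to 27.4 CPM in Laminectomy mice, above every No operation mouse. *Cd4* made up 38.3 to 64.5% of the sum in SHAM mice and 46.4 to 78.9% in Laminectomy mice, but 16.9 to 45.2% in No operation mice, where *Nkg7* made up 52.5 and 52.3% in mice 2 and 3. Of the 6 genes tested *Gzmb* showed the largest fold change in SHAM, and in Laminectomy *Gzmb* (log2 fold change 3.46) and *Cd4* (3.11) changed order without No operation mouse 2 (3.34 and 3.70) or Laminectomy mouse 1 (3.07 and 3.27). Of the 10 genes, 6 passed the filter on low counts (*Cd3g*, *Cd4*, *Cd8a*, *Gzmb*, *Nkg7* and *Ncr1*). A gene was called at an adjusted p below 0.05 in edgeR and an absolute log2 fold change above 0.5. In SHAM against No operation 5 of the 6 were called higher and none lower, where 25.7% of the 14765 genes tested were called higher and 25.1% lower. In Laminectomy against No operation 4 were called higher and none lower, where 24.2% of all genes tested were called higher and 24.4% lower. Between Laminectomy and SHAM 0 of the 6 were called, as were 0% of all genes in either direction by edgeR, although 2359 genes had an unadjusted p below 0.05 and DESeq2 called 687 (none of these 10). DESeq2 gave no adjusted p there for *Gzmb* and *Ifng*, so it could not call them. None of the 6 met the filter's CPM minimum in all 4 No operation mice, against 91.0% of all genes tested, so they passed through the mice in which they were high. Their counts are therefore a description, are not support for a direction, and do not stand for all 10.

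**Figure D1:**
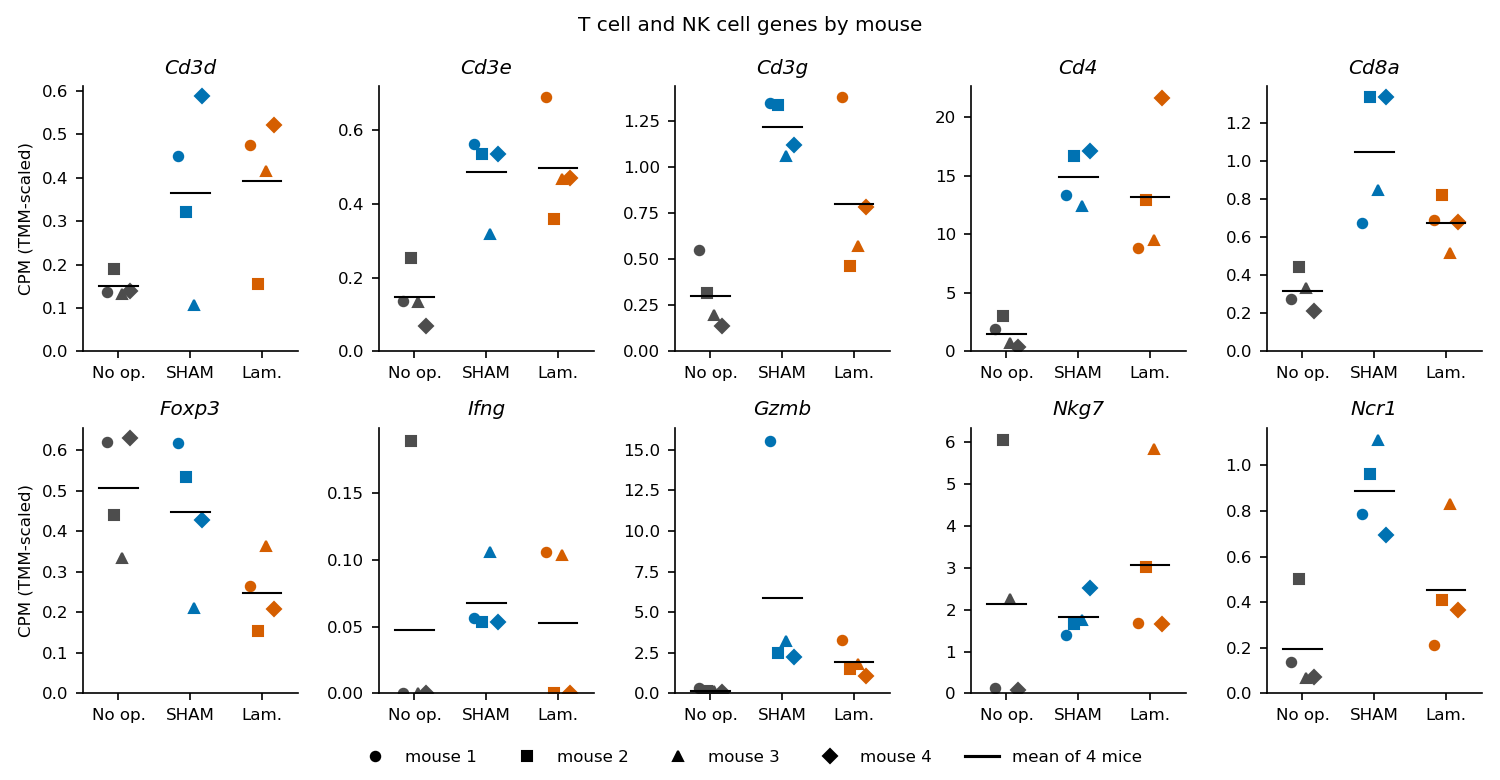
CPM of each gene (vertical axes, each from 0) in every mouse of the No operation (No op.), SHAM and Laminectomy (Lam.) groups, with symbols for mouse numbers and a bar at the mean of 4 mice. *Cd3e*, *Cd4*, *Cd8a* and *Gzmb* in both operated groups lie above all No operation mice, *Nkg7* overlaps throughout, and *Ifng* never exceeds 3 reads in a mouse.

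The libraries held between 16802988 and 18077863 counts. With the TMM factors 1 CPM stood for 14.3 to 15.9 reads in No operation mice and 17.8 to 19.5 reads in operated mice, and intervals on summed counts cover counting error only. Other cells moved with the same groups. The skeletal muscle markers were called lower in 8 of 8 in both operated groups, their summed level being 77145 to 108657 CPM in No operation mice, 1975 to 7716 CPM in SHAM mice and 2641 to 11055 CPM in Laminectomy mice. Of 10 macrophage and monocyte markers 9 were called higher in SHAM and 8 in Laminectomy mice, and their sum went from 498 to 1137 CPM in No operation mice to 2501 to 4591 CPM in SHAM mice and 1693 to 2217 CPM in Laminectomy mice. *Ptprc*, the common leukocyte antigen CD45, had CPM values of 67.1, 113, 57.8 and 22.4 among No operation mice, 327, 230, 205 and 276 among SHAM mice, and 238, 176, 206 and 196 among Laminectomy mice. In bulk tissue, fewer cells of a type and less RNA per cell cannot be told apart, and the part of tissue composition in the changes below was not tested.

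The 3 CD3 chains are neighbours on chromosome 9, within 40056 bases, and *Cd3g* and *Cd3d* are transcribed away from each other from starts 1355 bases apart (GRCm38, GENCODE annotation). *Cd3e* (identifier 12501, chr9:44998740-45009627, minus strand) encodes the epsilon chain, which antibodies against CD3 commonly bind. The 2, 4, 2 and 1 reads of No operation mice came to 0.138, 0.252, 0.133 and 0.0701 CPM. Among SHAM mice it was at 0.562, 0.535, 0.318 and 0.534 CPM, and among Laminectomy mice at 0.688, 0.360, 0.466 and 0.469 CPM. Every operated mouse was above every No operation mouse, although no mouse held more than 13 reads. The rate over summed counts was 3.22 times that of No operation in SHAM (95% interval 1.52 to 7.60) and 3.28 times in Laminectomy (1.56 to 7.71). *Cd3e* did not pass the filter, and a two-sided exact permutation test of log2 CPM gave p = 0.0286 in both comparisons, the smallest that 4 mice against 4 allow. With no filter edgeR called it, at log2 fold changes of 1.66 (standard error, SE, 0.455, adjusted p = 0.00925) in SHAM and 1.68 (adjusted p = 0.00888) in Laminectomy. An antisense gene that was not analysed here, *Gm48719*, overlaps 135 bases of its exons.

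*Cd3g* (identifier 12502, chr9:44969572-44980431, minus strand), the gamma chain, was the most abundant of the chains. Its CPM values were 0.551, 0.315, 0.200 and 0.140 among No operation mice and 1.35, 1.34, 1.06 and 1.12 among SHAM mice, with no overlap. Laminectomy mice had 1.38, 0.463, 0.570 and 0.782 CPM, where mouse 2 fell below No operation mouse 1. *Cd3g* rose in SHAM by a log2 fold change of 1.99 (SE 0.451, edgeR adjusted p = 0.0026) and in Laminectomy by 1.38 (SE 0.457, edgeR adjusted p = 0.0214). The second call was lost without No operation mouse 3 (1.23, adjusted p = 0.0623), No operation mouse 4 (1.16, adjusted p = 0.0579) or Laminectomy mouse 1 (0.99, adjusted p = 0.0752, all edgeR). In a fit of only those groups it fell below the filter.

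*Cd3d* (identifier 12500, chr9:44981786-44987339, plus strand), the delta chain, had 2 or 3 reads in each No operation mouse, at 0.138, 0.189, 0.133 and 0.140 CPM. Among SHAM mice it was at 0.450, 0.321, 0.106 and 0.587 CPM and among Laminectomy mice at 0.476, 0.154, 0.414 and 0.521 CPM. SHAM mouse 3 and Laminectomy mouse 2 lay within or below the No operation range, and the other operated mice above it. The summed rate was 2.42 times that of No operation in SHAM (95% interval 1.10 to 5.84) and 2.59 times in Laminectomy (1.2 to 6.20). The exact permutation test gave p = 0.143 for both, and edgeR with no filter adjusted p = 0.0931 and 0.0724, so *Cd3d* was not called.

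Per kilobase of the principal transcript, *Cd3g* was at 1.79 to 5.72 times the level of *Cd3e* in No operation mice, 3.00 to 4.76 times in SHAM and 1.75 to 2.86 times in Laminectomy mice. *Cd3d* stayed at 0.301 to 1.81 times *Cd3e* over the 12 mice. The sequences before the RefSeq starts of the 3 chains are given because the chains share a locus and a receptor but are read from separate promoters (RefSeq, GRCm38.p6, 250 bases upstream, 5′ to 3′). Capitals mark matches on either strand to AGGAAG (the ETS core with flanks), to AGATAA, which factors of the GATA family bind, or to GGGCGG, the box bound by Sp factors, with those on the other strand appearing as reverse complements.
*Cd3g*, chr9:44980432-44980681, minus strand: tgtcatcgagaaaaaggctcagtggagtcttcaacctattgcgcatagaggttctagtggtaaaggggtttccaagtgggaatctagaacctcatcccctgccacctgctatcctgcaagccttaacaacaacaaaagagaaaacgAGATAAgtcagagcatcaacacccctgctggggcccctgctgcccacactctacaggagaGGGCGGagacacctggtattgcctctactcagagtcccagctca
*Cd3d*, chr9:44981536-44981785, plus strand: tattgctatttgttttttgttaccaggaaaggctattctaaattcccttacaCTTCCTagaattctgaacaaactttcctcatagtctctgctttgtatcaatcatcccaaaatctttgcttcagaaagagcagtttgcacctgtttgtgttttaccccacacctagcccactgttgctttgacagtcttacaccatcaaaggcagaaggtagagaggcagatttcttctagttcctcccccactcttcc
*Cd3e*, chr9:45009612-45009861, minus strand: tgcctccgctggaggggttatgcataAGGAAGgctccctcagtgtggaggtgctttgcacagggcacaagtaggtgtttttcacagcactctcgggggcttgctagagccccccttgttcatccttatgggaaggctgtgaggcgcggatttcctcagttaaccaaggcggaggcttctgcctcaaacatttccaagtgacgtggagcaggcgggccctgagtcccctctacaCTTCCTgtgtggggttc
AGGAAG occurs in the windows of *Cd3e*, at 224 to 219 and 17 to 12 bases before the start, and of *Cd3d*, and in 29.5% of 32851 RefSeq promoter windows of this length. AGATAA and GGGCGG occur before *Cd3g* and in 9.99% and 32.7% of the windows. TATAAA, the TATA motif, is in none of the 3 windows and in 12.4% of all.

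*Cd4* (identifier 12504, chr6:124864692-124888221, minus strand) encodes the co-receptor of helper and regulatory T cells, which some dendritic and other myeloid cells can also carry. No operation mice held 1.93, 3.02, 0.733 and 0.350 CPM, from 5 to 48 reads. SHAM mice held 13.3, 16.7, 12.4 and 17.1 CPM and Laminectomy mice 8.79, 12.9, 9.48 and 21.6 CPM. All 8 operated mice lay above all 4 controls, and both operated groups overlapped widely. *Cd4* rose by log2 fold changes of 3.29 in SHAM (SE 0.518, edgeR adjusted p = 0.000231) and 3.11 in Laminectomy (SE 0.516, edgeR adjusted p = 0.000379). Without No operation mouse 2, the control with most *Cd4*, these were 3.88 and 3.70. The difference of Laminectomy from SHAM was -0.18 (SE 0.452, edgeR adjusted p = 0.873).

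*Cd8a* (identifier 12525, chr6:71373427-71379173, plus strand) encodes the alpha chain of the cytotoxic T cell co-receptor. Its CPM values were 0.276, 0.441, 0.333 and 0.210 among No operation mice, 0.674, 1.34, 0.847 and 1.33 among SHAM mice, and 0.688, 0.823, 0.518 and 0.678 among Laminectomy mice. Again every operated mouse was above every control, over a much smaller distance than for *Cd4*. *Cd8a* rose by log2 fold changes of 1.71 in SHAM (SE 0.349, edgeR adjusted p = 0.00133) and 1.08 in Laminectomy (SE 0.354, edgeR adjusted p = 0.0208). In a fit of only those groups it fell below the filter, and the Laminectomy call was lost in DESeq2 (adjusted p = 0.0512) and without No operation mouse 4 (0.94, adjusted p = 0.0592) or Laminectomy mouse 2 (0.97, adjusted p = 0.0531, both edgeR). Laminectomy and SHAM differed by -0.63 (SE 0.318, edgeR adjusted p = 0.364).

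**Figure D2:**
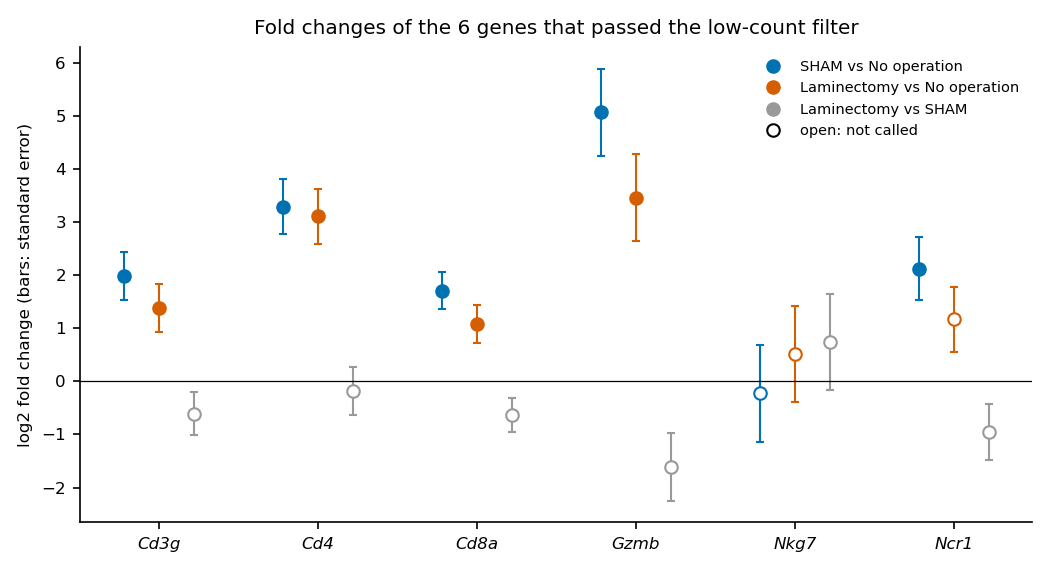
Log2 fold changes (vertical axis) with standard errors (bars) of the 6 genes that passed the low-count filter, in the 3 comparisons, with filled points for calls and open points for none. *Gzmb* and *Cd4* have the largest rises, and every Laminectomy against SHAM point is open.

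The fold changes of *Cd4* were larger than those of the CD3 chains and of *Cd8a*. *Cd8a* reads were 14.3, 14.6, 45.5 and 60% of *Cd4* reads in No operation mice, 5.06, 8.01, 6.81 and 7.79% in SHAM mice, and 7.83, 6.37, 5.46 and 3.14% in Laminectomy mice. The share was lower in all 8 operated mice, with a mean log2 ratio lower than No operation by 2.19 in SHAM and by 2.47 in Laminectomy (prior count of 2), each at an exact permutation p = 0.0286 (p = 0.0571 after Benjamini-Hochberg adjustment over 6 ratio tests, which does not pass 0.05). Per kilobase, *Cd4* was at 2.35 to 6.59 times the level of *Cd3e* in No operation mice, 11.1 to 18.4 times in SHAM and 6.01 to 21.6 times in Laminectomy mice. Beside these ratios, the macrophage and monocyte sum was above the controls in every operated mouse, and of 8 dendritic cell markers tested *Flt3* and *Itgax* were called higher in both operated groups and *Zbtb46* and *Cd209a* lower in Laminectomy (median log2 fold change of the 8, 0.03 in SHAM and -0.39 in Laminectomy). These dendritic cell counts are near the shares of all genes tested, 25.7% higher in SHAM and 24.2% higher and 24.4% lower in Laminectomy. Which cells carried the *Cd4* transcript was not tested.

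Set against *Ptprc*, the ranges of *Cd3e* overlapped between the groups. It was at 2.06 to 3.12 reads per 1000 *Ptprc* reads in No operation mice (median 2.27), 1.55 to 2.32 in SHAM mice (median 1.82) and 2.05 to 2.89 in Laminectomy mice (median 2.32). With a prior count of 2 the mean log2 ratio of *Cd3e* to *Ptprc* was lower than in No operation by 1.10 in SHAM (exact permutation p = 0.0286, adjusted p = 0.0571 over 6) and by 0.76 in Laminectomy (exact permutation p = 0.0571, adjusted p = 0.0857). That size rests on the prior, which weighs most on the 1 to 4 reads of the control mice. With no prior count, an alternative added after the data were seen, the differences were -0.37 (exact permutation p = 0.114) and -0.01 (exact permutation p = 0.914). *Cd4*, by contrast, was at 12.7 to 28.8 reads per 1000 *Ptprc* reads in No operation mice, 40.7 to 72.5 in SHAM mice and 37.0 to 110 in Laminectomy mice, with no overlap between controls and operated mice. *Cd8a* had medians of 4.94, 4.48 and 3.17 in the same order and overlapped.

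**Figure D3:**
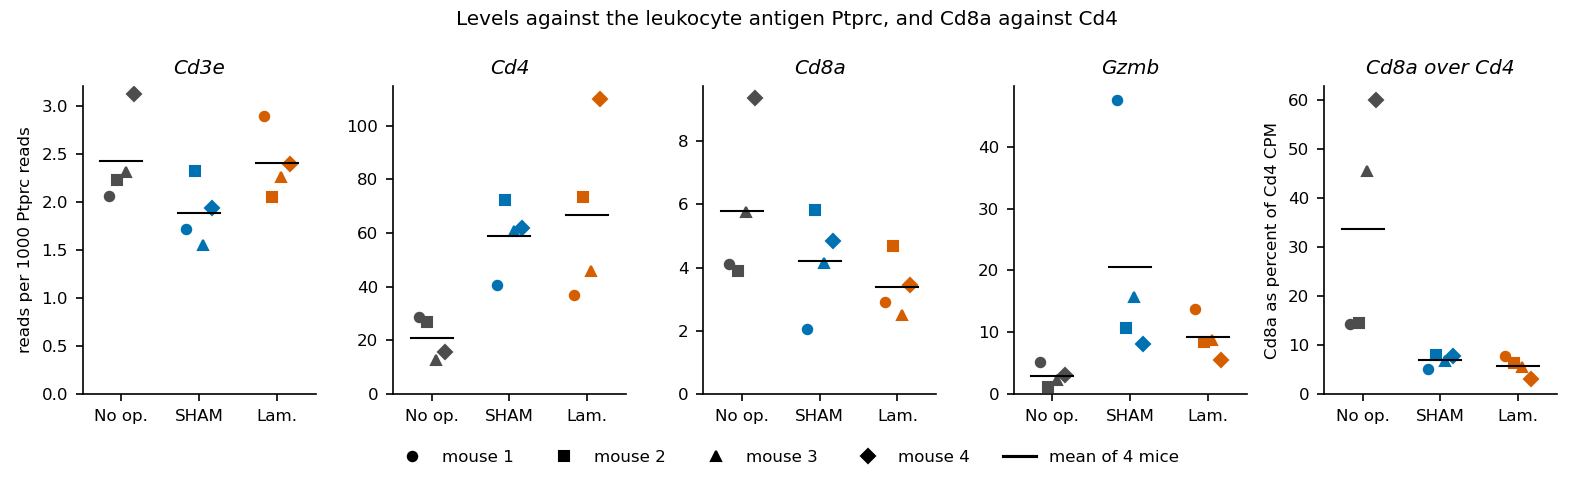
Reads of *Cd3e*, *Cd4*, *Cd8a* and *Gzmb* per 1000 *Ptprc* reads, and *Cd8a* as a percent of *Cd4* CPM, in every mouse, with a bar at the mean of 4 mice. *Cd3e* and *Cd8a* per *Ptprc* overlap between the groups, *Cd4* and *Gzmb* per *Ptprc* are higher in all operated mice, and *Cd8a* over *Cd4* is lower in them.

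*Foxp3* (identifier 20371, chrX:7573644-7595245, plus strand) encodes the transcription factor that defines regulatory T cells. Its CPM values were 0.620, 0.441, 0.333 and 0.631 among No operation mice, 0.618, 0.535, 0.212 and 0.427 among SHAM mice, and 0.265, 0.154, 0.363 and 0.209 among Laminectomy mice, from 3 to 11 reads a mouse. It was the only one of the 10 genes without a higher mean in either operated group. It did not pass the filter. In Laminectomy the summed rate was 0.492 times that of No operation (95% interval 0.262 to 0.903, exact permutation p = 0.0286), with Laminectomy mouse 3 above No operation mouse 3, and in SHAM 0.886 times (0.524 to 1.5, exact permutation p = 0.486). These p-values are not adjusted for the number of such tests made, which covered all 10 genes in all 3 comparisons. DESeq2 gave an adjusted p of 0.134 for the Laminectomy difference, and with a prior count of 0.5 its exact permutation p was 0.0571. *Foxp3* was also the only one of the 10 with deposited values that are not whole numbers, and its exons overlap those of *Ccdc22* and *Ppp1r3f* on the opposite strand. *Ppp1r3f* was at 5.04 to 7.08 CPM in No operation mice, 3.26 to 4.01 CPM in SHAM mice and 3.39 to 4.90 CPM in Laminectomy mice, and *Ccdc22* at 19.9 to 25.8 CPM over all 12. With default counting, which is taken not to use strand, reads from these genes cannot be told apart in the shared bases.

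*Gzmb* (identifier 14939, chr14:56258838-56262260, minus strand) encodes granzyme B, a granule protease that triggers death of target cells. No operation mice held 0.345, 0.126, 0.133 and 0.0701 CPM, from 10 reads in all. SHAM mice held 15.6, 2.46, 3.23 and 2.24 CPM and Laminectomy mice 3.28, 1.49, 1.81 and 1.09 CPM. No operated mouse came near the controls, and SHAM mouse 1 stood far above the other SHAM mice. That mouse also had the highest macrophage and monocyte sum of its group (4591 CPM, against 2501 to 2748 CPM) and the lowest skeletal muscle sum (1975 CPM, against 5255 to 7716 CPM), and the part of these in its *Gzmb* value was not tested. *Gzmb* rose by log2 fold changes of 5.07 in SHAM (SE 0.825, edgeR adjusted p = 0.000291) and 3.46 in Laminectomy (SE 0.819, edgeR adjusted p = 0.00357). Without SHAM mouse 1 the first was 3.93 (adjusted p = 0.000126, edgeR). DESeq2 gave no adjusted p for *Gzmb*. Laminectomy was below SHAM by a log2 fold change of -1.61 (SE 0.641, unadjusted p = 0.028, edgeR adjusted p = 0.25), and without SHAM mouse 1 by -0.46. Per 1000 *Ptprc* reads *Gzmb* was at 1.11 to 5.14 in No operation mice, 8.12 to 47.5 in SHAM mice and 5.58 to 13.8 in Laminectomy mice.

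*Ncr1* (identifier 17086, chr7:4337724-4345164, plus strand) encodes NKp46, an activating receptor that marks NK cells and some innate lymphoid cells. Its CPM values were 0.138, 0.504, 0.0666 and 0.0701 among No operation mice and 0.787, 0.963, 1.11 and 0.694 among SHAM mice, without overlap. Among Laminectomy mice it stood at 0.212, 0.411, 0.829 and 0.365 CPM, and No operation mouse 2 exceeded 3 of the 4. *Ncr1* rose in SHAM by a log2 fold change of 2.13 (SE 0.598, edgeR adjusted p = 0.00908). In Laminectomy the value was 1.17 (SE 0.619, edgeR adjusted p = 0.123). Without No operation mouse 2 these became 3.19 and 2.23, and the second was then called (adjusted p = 0.00807, edgeR). Laminectomy against SHAM gave -0.96 (SE 0.531, edgeR adjusted p = 0.402), so the call in SHAM alone is not a shown difference between the operated groups.

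The windows before *Gzmb* and *Ncr1*, the killer cell genes that rose most in SHAM among the 6, are given in the same way (RefSeq, GRCm38.p6, 5′ to 3′). Capitals mark TGTGGT, a RUNX site, and TGANTCA, an AP-1 site, on either strand.
*Gzmb*, chr14:56262335-56262584, minus strand: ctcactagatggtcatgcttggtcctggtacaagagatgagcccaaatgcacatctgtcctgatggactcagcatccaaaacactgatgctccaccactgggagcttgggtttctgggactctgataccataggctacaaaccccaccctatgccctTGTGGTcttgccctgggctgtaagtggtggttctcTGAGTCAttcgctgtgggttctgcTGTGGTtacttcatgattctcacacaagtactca
*Ncr1*, chr7:4337465-4337714, plus strand: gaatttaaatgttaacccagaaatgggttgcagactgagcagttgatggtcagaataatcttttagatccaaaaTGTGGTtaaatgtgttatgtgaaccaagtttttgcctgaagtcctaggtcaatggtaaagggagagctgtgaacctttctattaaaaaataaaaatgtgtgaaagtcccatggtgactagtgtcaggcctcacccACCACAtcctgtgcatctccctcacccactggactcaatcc
TGTGGT occurs at 93 to 88 and at 34 to 29 bases before the *Gzmb* start and at 176 to 171 and 41 to 36 bases before the first of the *Ncr1* starts, and TGANTCA at 58 to 52 bases before *Gzmb*. Over all windows TGTGGT was present in 14% and TGANTCA in 6.75%. These matches describe letters only.

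*Nkg7* (identifier 72310, chr7:43437073-43438249, plus strand) encodes a granule membrane protein of NK cells and cytotoxic T cells. No operation mice held 0.138, 6.05, 2.26 and 0.0701 CPM, a wide spread. SHAM mice held 1.40, 1.66, 1.75 and 2.51 CPM and Laminectomy mice 1.69, 3.03, 5.85 and 1.67 CPM. No operation mice 2 and 3 thus lay within or above the operated range and mice 1 and 4 far below it. *Nkg7* was not called, with log2 fold changes of -0.23 in SHAM (SE 0.915, edgeR adjusted p = 0.842) and 0.51 in Laminectomy (SE 0.905, edgeR adjusted p = 0.647). Without No operation mouse 2 these were 1.13 (adjusted p = 0.286) and 1.87 (adjusted p = 0.0911, both edgeR), the first with the opposite sign. The mean of log2 CPM in SHAM, on which the high controls weigh less, was also above No operation, by 0.98 (exact permutation p = 0.4). The difference of Laminectomy from SHAM was 0.74 (SE 0.905, edgeR adjusted p = 0.713).

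The spread of *Nkg7* followed the neutrophil markers in part. The summed CPM of 8 neutrophil markers, *Mpo* and *Elane* of immature marrow cells among them, was 61.1, 2150, 826 and 16.3 in No operation mice, 1068, 415, 531 and 1219 in SHAM mice, and 481, 1235, 2043 and 565 in Laminectomy mice. Within No operation mice *Nkg7* followed the same order as this sum, and in Laminectomy mice the mouse with most of it also had most *Nkg7*. In SHAM mice, mouse 4 likewise had most of both and mice 2, 3 and 4 kept the order of the sum, but mouse 1, with a sum of 1068 CPM, had the least *Nkg7* (1.40 CPM). No operation mouse 2 further had the highest summed B cell and plasma cell markers (69.7 CPM, against 5.33 to 29.2 CPM in the other 11 mice) and the highest summed thymocyte list (105 CPM, against 15.1 to 49.5 CPM), in which *Cd1d1* supplied most of the reads. The part of these cells in the *Nkg7* and *Ncr1* values was not tested. Without No operation mouse 2 the called genes stayed 5 of 6 in SHAM and became 5 of 6 in Laminectomy.

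**Figure D4:**
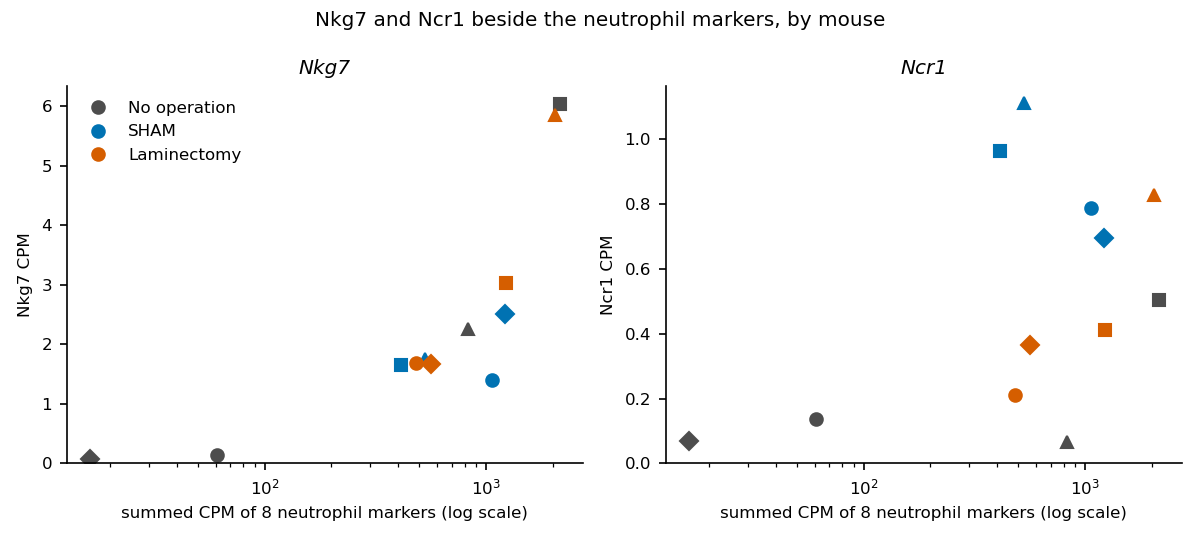
CPM of *Nkg7* and of *Ncr1* (vertical axes) against the summed CPM of 8 neutrophil markers (horizontal log axis) in 12 mice, coloured by group and with symbols for mouse numbers as in the plot of CPM by mouse. Mice with the largest neutrophil sums, No operation 2 (square) and Laminectomy 3 (triangle), have the most *Nkg7*, while the highest *Ncr1* values belong to SHAM mice.

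*Ifng* (identifier 15978, chr10:118441046-118445892, plus strand) encodes interferon gamma. Its reads numbered 0, 3, 0 and 0 in No operation mice, 1, 1, 2 and 1 in SHAM mice, and 2, 0, 2 and 0 in Laminectomy mice. No mouse exceeded 3 reads, so a difference was not detectable at this depth. Differences in log2 CPM of *Ifng* are given only in the closing section, to show how they turn with the processing. A gene of the same strand that was not analysed here, *Gm49751*, overlaps 336 bases of its exons.

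Within groups, the genes did not all move with the CD3 chains. After subtracting each group's mean, log2 CPM of *Foxp3* over the 12 mice had a Pearson correlation of 0.55 with the mean of the CD3 chains, *Gzmb* 0.38, *Cd4* 0.37, *Ifng* 0.32, *Cd8a* 0.15, *Nkg7* 0.03 and *Ncr1* -0.11. The tested genes most like the chains by this measure were *Txn1* (0.93), *Atp6v1e1* (0.92), *Atp6v0e* (0.92), *Mnt* (0.91) and *Nagk* (0.91), widely expressed genes of redox control, proton pumping, transcription and sugar metabolism. These are descriptions over values that share libraries, and with 1 to 26 reads per mouse behind each CD3 chain they say little of single mice.

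The wider pathway was read from 9 lists of other T and NK cell genes, 163 genes of which 121 were tested. In SHAM 63 were called higher and 15 lower (25.7% and 25.1% over all genes tested), and in Laminectomy 52 higher and 21 lower (24.2% and 24.4%), and none was called between both by edgeR. Of the 121 genes 70 met the filter's CPM minimum in every No operation mouse, so many of the others passed it through operated mice, which can tilt these counts and the medians below upward. NK cell and innate lymphoid genes had the largest share called higher in SHAM of the 9 lists, with 16 of 18 higher in SHAM (median log2 fold change 2.49, against -0.00 for all genes tested) and 11 of 18 in Laminectomy (median 1.68, against 0.01), and none lower. Only 4 of these 18 genes met the minimum in every No operation mouse, and 5 further genes of the list were in the table but not tested, so the count and medians are a description of genes that passed mainly where they were high. Among them *Klrd1*, the CD94 receptor chain, went from a mean of 0.263 CPM to 2.45 in SHAM and 1.52 in Laminectomy mice. *Klrc1*, its partner NKG2A, had log2 fold changes of 2.66 and 2.26 (adjusted p = 5.35e-05 and 0.000196, edgeR). *Tyrobp* and *Fcer1g*, signalling adaptors that macrophages also express, rose by 2.61 and 2.65 in SHAM. The *Klra* genes of this list belong to a family of close copies, among which reads may be misassigned.

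Of 12 granule and killing genes 6 were higher and 2 lower in SHAM (median log2 fold change 0.66), and 5 higher and 2 lower in Laminectomy (median 0.79), beside 25.7% higher and 25.1% lower over all genes in SHAM and 24.2% and 24.4% in Laminectomy. Of the 12 genes 7 met the filter's minimum in every No operation mouse. *Prf1*, perforin, rose by 3.17 in SHAM (SE 0.551, edgeR adjusted p = 0.000458) and by 2.06 in Laminectomy (adjusted p = 0.00785, edgeR). *Gzma*, granzyme A, rose by 3.08 and 1.95, and by 2.49 in SHAM without SHAM mouse 1. Its Laminectomy call (adjusted p = 0.0248) was lost without No operation mouse 1, 3 or 4 (adjusted p = 0.0532, 0.0671 and 0.0657) or Laminectomy mouse 3 (1.26, adjusted p = 0.0995, all edgeR). *Gzmc* had no read in any No operation mouse and was at 0.477 to 0.909 CPM in SHAM mice and 0.570 to 2.12 CPM in Laminectomy mice. *Gzmm*, granzyme M, fell by 2.85 on the log2 scale in SHAM and fell by 2.6 in Laminectomy.

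Genes of the T cell receptor and its signalling moved in both directions, with 6 of 19 higher and 2 lower in SHAM (median 0.56) and 5 higher and 4 lower in Laminectomy (median 0.72), where 25.7% and 25.1% of all genes were called higher and lower in SHAM and 24.2% and 24.4% in Laminectomy. *Lcp2*, the adaptor SLP-76 of T cells and other leukocytes, rose by 2.39 and 1.92. *Prkcq*, a kinase that skeletal muscle also expresses, fell by 2.97 in SHAM and fell by 2.35 in Laminectomy, as did the muscle markers. *Cd2*, an adhesion receptor of T and NK cells, was lower in Laminectomy by a log2 fold change of -1.52 (adjusted p = 0.00286, edgeR) and not called in SHAM (-0.59, adjusted p = 0.143, edgeR). *Tcf7* was higher in Laminectomy at 1.80 (adjusted p = 0.00436, edgeR) and not called in SHAM (0.56, adjusted p = 0.281, edgeR). Laminectomy was not called against SHAM for either (adjusted p = 0.225 and 0.200, edgeR). Of 3 gamma delta T cell genes tested *Cd163l1* was higher in both groups.

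Regulatory and checkpoint genes counted 6 of 14 higher and 2 lower in SHAM (median 1.06), and 5 higher and 4 lower in Laminectomy (median 0.83), beside 25.7% higher and 25.1% lower over all genes in SHAM and 24.2% and 24.4% in Laminectomy. Of the 14 genes 7 met the filter's minimum in every No operation mouse. The summed level of the list was 181 to 234 CPM in No operation mice, 153 to 246 CPM in SHAM mice and 135 to 164 CPM in Laminectomy mice, the last below every control. By means, *Tigit* made up most of the No operation sum, so these sums do not stand for the rest of the list. *Tigit*, an inhibitory receptor, went from a mean of 165.6 CPM to 51.2 in SHAM and 55.3 in Laminectomy mice and fell in both, with log2 fold changes of -1.69 and -1.58 (adjusted p = 2.48e-05 and 4.72e-05, edgeR). *Ikzf2*, the factor Helios, fell by 1.68 on the log2 scale in SHAM and fell by 1.67 in Laminectomy. In No operation mice the *Tigit* mean was above every *Ptprc* value (22.4 to 113 CPM). *Tigit* and *Ikzf2* fell in the same groups as the muscle markers, and which cells carried these transcripts was not tested. *Il2ra* and *Tnfrsf4*, activation receptors of T cells, were called lower in Laminectomy alone, at -0.87 and -1.20, and these calls were lost without any of 3 and any of 5 mice (adjusted p up to 0.0723 and 0.0992, edgeR); Laminectomy was not called against SHAM for either. *Il10*, *Havcr2* (TIM-3) and *Il1rl1* (ST2), which macrophages or mast cells can also express, rose by 4.53, 3.51 and 2.63 in SHAM and by 3.78, 3.40 and 1.87 in Laminectomy. *Tnfrsf9*, the costimulatory receptor 4-1BB, rose by 5.09 in SHAM, at 4.34 to 71.7 CPM, and by 2.43 in Laminectomy, at 2.06 to 6.41 CPM. Without SHAM mouse 1, which held the 71.7 CPM, the first was 3.42 (adjusted p = 0.000931, edgeR), and the Laminectomy call (adjusted p = 0.0465) was lost without any of 8 mice, each of the 4 No operation mice among them (adjusted p up to 0.115, edgeR). Without No operation mouse 2 *Il10* was at 5.24 and 4.49, and without No operation mouse 1 *Havcr2* was at 4.26 and 4.15. Of 5 helper T cell factors tested 3 fell in both groups, *Rora* and *Bcl6* among them, which are also active in muscle or other tissues.

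Of 13 attractants and homing receptors of T and NK cells 9 were higher and 1 lower in each operated group, with medians of 2.32 and 1.78. Over all genes 25.7% were higher and 25.1% lower in SHAM and 24.2% and 24.4% in Laminectomy, and 6 of the 13 met the filter's minimum in every No operation mouse. *Cxcl10*, a ligand of the receptor CXCR3, went from a mean of 0.849 CPM to 19.4 in SHAM and 22.4 in Laminectomy mice. *Cxcl16* rose by log2 fold changes of 3.18 and 2.89 and *Ccl5* by 2.93 and 2.32. Without Laminectomy mouse 1 the Laminectomy values were 3.93 for *Cxcl10*, in place of 4.70, and 1.70 for *Ccl5*. Of 13 growth cytokines and receptors 7 were higher and 4 lower in SHAM (median 1.2), and 6 higher and 4 lower in Laminectomy (median 0.85), the shares lower being near those of all genes. Of these 13 genes 9 met the minimum in every No operation mouse. *Il2rg*, the common gamma chain, rose by 2.97 and 2.66, *Il7r* by 2.67 and 2.37, and *Il21r* by 3.55 and 2.84. *Il7* and *Il15*, cytokines that sustain T and NK cells, were called lower in both groups, *Il7* by a log2 fold change of -0.72 in SHAM and -0.85 in Laminectomy (adjusted p = 0.0446 and 0.0229, edgeR) and *Il15* by one of -0.90 and -1.31 (adjusted p = 0.0117 and 0.00149, edgeR). The *Il7* calls were lost without any of 9 mice in SHAM (adjusted p up to 0.158) and any of 4 in Laminectomy (adjusted p up to 0.0845, both edgeR). *Il12a* was called lower in SHAM, at -1.78 (adjusted p = 0.00159, edgeR), but not in Laminectomy, and *Il12b* of the same list was called higher in both groups. *Il18*, which drives interferon gamma release, rose by 1.95 and 1.24.

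Of 24 genes of the interferon gamma receptor and response 12 were higher and 1 lower in SHAM (median 0.52), and 10 higher and 3 lower in Laminectomy (median 0.11), where all genes gave 25.7% higher and 25.1% lower in SHAM and 24.2% and 24.4% in Laminectomy. All 24 met the filter's minimum in every No operation mouse. *Irf8*, a factor also made by myeloid cells, rose by 1.69 and 1.16, *Socs1* by 1.63 and 1.80, and *Tap1*, the peptide transporter, by 1.32 and 1.08. *Cd274*, the ligand PD-L1, rose in SHAM by 1.81 (adjusted p = 0.0075, edgeR), and in Laminectomy its value was 0.71 (adjusted p = 0.224, edgeR). These genes also answer to other interferons.

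**Figure D5:**
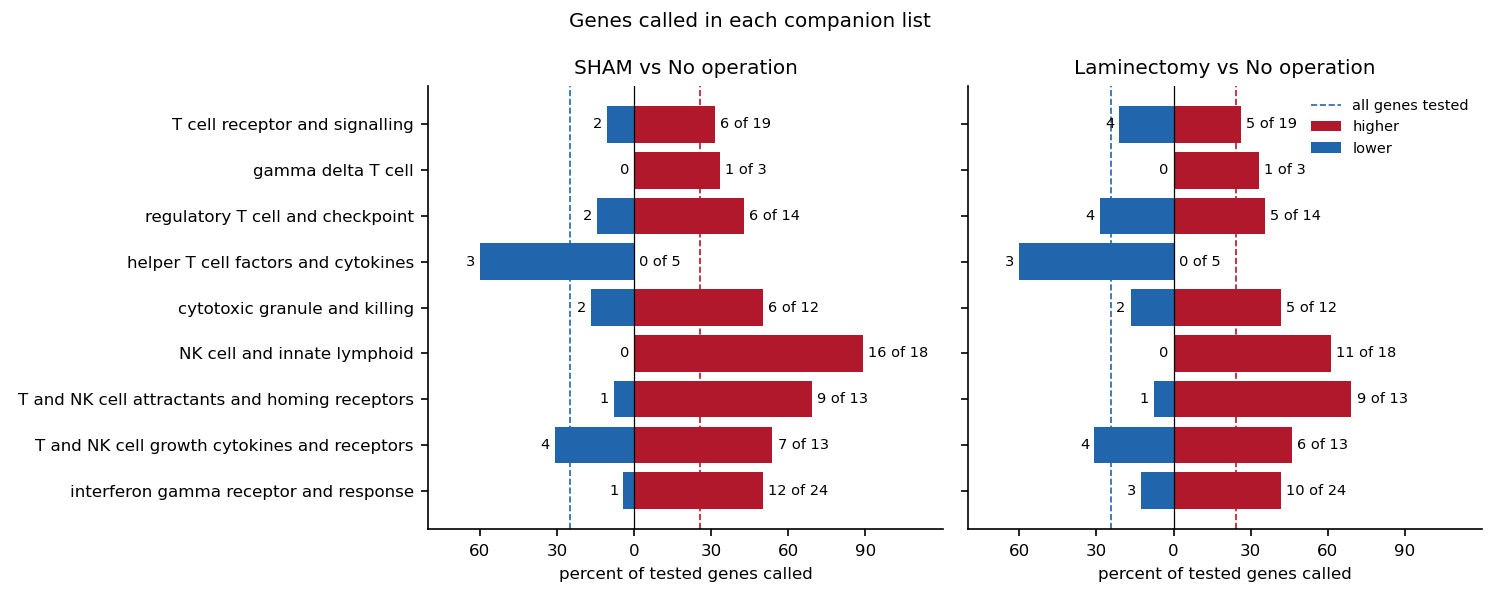
Percent of tested genes called higher (red, right) or lower (blue, left) in each list of other T and NK cell genes, for SHAM and Laminectomy against No operation, with counts beside the bars and dashed lines at the shares of all genes tested. The NK cell list reaches 16 of 18 in SHAM, while the helper T cell list has 0 of 5 higher and 3 lower in both.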

How the data were processed

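RNA from paraspinal tissue of 12 mice was sequenced by the authors as stranded poly(A) libraries (paired-end, HiSeq). Per the labels, reads were aligned with STAR 2.6.1b to GRCm38 and counted with featureCounts 2.0.1 (default settings per the study's methods), and DESeq2 1.30.1 was used. The deposited table holds unnormalized estimated counts, of which 10.2% are not whole; they were rounded here (a change of at most 0.5), and the design assumed counts. All 4 mice of each group were used, since the 3 per group used by the study are not named. The columns were mapped to mice by library name. No mouse is a duplicate of another.

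Genes were filtered with filterByExpr (14765 of 18996 kept), scaled with TMM and fitted over all 12 mice with the quasi-likelihood test of edgeR 4.0.16 (R 4.3.3), with Benjamini-Hochberg adjustment over the genes tested. All 10 members, and the ratios, were also compared between groups on the log2 CPM scale (prior count 2) in exact permutation tests, two-sided, with scipy 1.17.1. For members, these tests are given mainly for genes below the filter. Ratios of summed counts have exact 95% intervals for counting error only. The labels do not say that replicates came from separate cages or days. Alternatives were DESeq2 1.42.0, other scalings and filters, other thresholds, only the groups compared, a replicate block, a prior count of 0.5, and leaving out each mouse. The scripts were tested on simulated data. Gene lengths are those of principal GENCODE transcripts, and 9 of the 10 genes matched a RefSeq promoter.

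The members and lists were chosen with earlier results of these data known. Beside the 10 members, at most 4 called genes per list with the largest absolute log2 fold change and a mean of at least 1 CPM in the higher group were named. *Ccdc22*, *Ppp1r3f*, *Flt3*, *Itgax*, *Mpo*, *Elane*, *Cd1d1*, *Zbtb46*, *Cd209a*, *Il7*, *Il15*, *Il12a*, *Il12b*, *Tigit*, *Ikzf2*, *Il2ra* and *Tnfrsf4* were named after their values were seen. Some genes that this rule names are not reported here.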

Additional observations from a re-analysis of the deposited data

Results flagged for a closer look

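A mouse stood apart from the other 3 of its group, by a gap that took up most of the group's range, in 6 of 36 groups of values checked. Normally spread values pass this cutoff about 1 time in 20. That rate does not hold for genes with few reads or for values that share mice, so the 6 are not shown to be an excess. *Gzmb* in SHAM mouse 1 was at 15.6 CPM, from 277 reads, against 2.24 to 3.23 CPM in the other SHAM mice. The same mouse had a macrophage and monocyte sum of 4591 CPM against 2501 to 2748 CPM and held the highest *Tnfrsf9* (71.7 CPM), and the part of the former in these values was not tested. *Ncr1* in No operation mouse 2 was at 0.504 CPM against 0.0666 to 0.138 CPM. *Cd3e* in SHAM mouse 3 was at 0.318 CPM against 0.534 to 0.562 CPM. The remaining values rest on 2 or 3 reads: *Cd3d* in No operation mouse 2 (0.189 CPM), *Ifng* in No operation mouse 2 (0.189 CPM) and *Ifng* in SHAM mouse 3 (0.106 CPM). No operation mouse 2 thus stood apart in 3 genes. It was also the mouse with the largest neutrophil, B cell and thymocyte list sums, the last made up mostly of *Cd1d1*, and the part of these in its values was not tested.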

How the results depend on the processing

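Of 354 log2 fold changes of single members under the alternatives by edgeR or DESeq2, 344 kept their direction and side of the threshold, 6 lost the call, 1 gained it and 3 reversed, all 3 in *Nkg7*. These include other thresholds on the same fit, whose values cannot move, and fits without a mouse of the group not compared. Members that fell below a filter or got no adjusted p are not among the 354, so the share kept is not a measure of stability. The number of members called in SHAM stayed at 5 when any mouse was left out, and in Laminectomy it ran from 2 to 5, with 2 (*Cd4* and *Gzmb*) without No operation mouse 4 and also when only the groups compared were fitted, where *Cd3g*, *Cd8a* and *Ncr1* fell below the filter. Under a filter of 10 counts in each of the mice, which no member met, 0 members could be called in SHAM or Laminectomy, and 41 and 46 list genes were called, in place of 78 and 73. Leaving out a mouse gave 71 to 90 list genes in SHAM, 62 to 83 in Laminectomy and 0 between both. DESeq2 called 10 list genes between Laminectomy and SHAM and no member, but gave no adjusted p there for *Gzmb* and *Ifng*. With a replicate block the members called were again 5 and 4, and *Nkg7* in SHAM was 0.63 in place of -0.23; same-numbered mice correlated from -0.23 to 0.35 in their deviations, so the numbers were not taken as pairs. With a mouse left out *Nkg7* ran from -0.64 to 1.13 in SHAM, reversed without No operation mouse 2, and from -0.00485 to 1.87 in Laminectomy, reversed without Laminectomy mouse 3.

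Total counts in place of TMM moved the median of all genes by 0.25 in SHAM and 0.33 in Laminectomy and raised the share of higher among called genes from 50.6 to 66.0% and from 49.8 to 69.9%, with the same 5 and 4 members called. Near 0, signs of differences in log2 CPM turned for genes below the filter. *Ifng* in Laminectomy was -0.20 with all mice and 0.093 at a prior count of 0.5, and ran from -0.37 to 0.10 with a mouse left out. In SHAM *Ifng* was 0.045 with all mice and ran from -0.069 to 0.34, negative without No operation mouse 1 (-0.05), 3 (-0.069) or 4 (-0.04) or SHAM mouse 3 (-0.05). *Foxp3* in SHAM ran from -0.39 to 0.0076 (without SHAM mouse 3). Between Laminectomy and SHAM *Cd3d* ran from -0.23 (without SHAM mouse 3) to 0.40, and was -0.024 without Laminectomy mouse 4, and *Cd3e* ran from -0.15 (without SHAM mouse 3) to 0.12, and was -0.14 without Laminectomy mouse 1. The cause of these was not tested. Of 72 calls of named list genes, 6 were lost without some mouse, those of *Tnfrsf9*, *Gzma*, *Il2ra* and *Tnfrsf4* in Laminectomy and of *Il7* in both groups, and 0 reversed; this alternative was added after the data were seen. No ratio of *Cd3e* to *Ptprc* or *Cd8a* to *Cd4* changed its sign under any prior count or with a mouse left out. Depth limits *Ifng*, *Cd3d*, *Cd3e* and *Foxp3*, at 0 to 13 reads a mouse.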
